A study of Homo sapiens with 72 samples.

Results

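Mitochondrial DNA encodes 37 genes, and all 37 were among the 61541 genes of every deposited table: 13 mRNAs, 2 rRNAs and 22 tRNAs. They were taken as every gene whose symbol begins with MT-, a rule that uses no levels. This set of genes was chosen with earlier results of these data known. The circular mitochondrial genome is transcribed from a heavy-strand and a light-strand promoter into long transcripts that span nearly its whole length. The tRNAs punctuate these transcripts, and their excision releases the mRNAs and rRNAs. The heavy-strand promoter gives 12 mRNAs, both rRNAs and 14 tRNAs, and the light-strand promoter gives MT-ND6 and 8 tRNAs. The mRNAs encode subunits of complex I (MT-ND1 to MT-ND6 and MT-ND4L), complex III (MT-CYB), complex IV (MT-CO1 to MT-CO3) and ATP synthase (MT-ATP6 and MT-ATP8). MT-RNR1 and MT-RNR2 are the 12S and 16S rRNAs of the mitochondrial ribosome. Most mitochondrial mRNAs carry short poly-A tails, whereas MT-ND6 is known as the mRNA that largely lacks one.

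The study asked which RNAs the RNA-binding protein G3BP1 contacts and how RNA levels depend on it. G3BP1 and its paralog G3BP2 are cytoplasmic proteins that nucleate stress granules, the RNA-protein assemblies that form when translation stops, and the NTF2-like domain of G3BP1 mediates dimerisation. Of 72 libraries, 24 in 11 groups were used here, and the 48 others were not analysed here. For RNA immunoprecipitation sequencing (RIP), FlpIn 293 Trex cells (a HEK293-derived embryonic kidney line) with stable FLAG-G3BP1 were induced with 1 ug/mL tetracycline for 24 h, and 3 immunoprecipitates (IP) were compared with 3 inputs. The other 18 libraries came from U2OS osteosarcoma cells, 2 per group. The first U2OS set held wild-type cells, G3BP1/2 knockout cells, and knockout cells 24 h after transient transfection of a G3BP1 transgene (the G3BP1 rescue). The second set held knockout cells and knockout cells transfected 24 h earlier with wild-type G3BP1 (the wild-type rescue) or a G3BP1 mutant lacking NTF2 (the NTF2-deletion rescue). Each of these was left untreated or given 200 uM sodium arsenite, an oxidative stressor that induces stress granules, for 2 h. Both rescues therefore carried the knockout and a transfection, and no mock-transfected knockout was among the groups used. The labels do not say whether the knockout line was 1 clone, nor whether the libraries of a group came from separate cultures. The p-values measure the spread between these libraries, which may be technical. In such bulk samples, fewer cells with a transcript and less of it per cell cannot be told apart.

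All libraries were selected for poly-A RNA, which shapes what could be seen of each class. The members held 7.27% to 12.1% of the gene reads of the 18 U2OS libraries, whose depth ran from 10793184 to 52470072 gene reads. The mRNAs held 5.83% to 9.87% and the rRNAs 1.15% to 2.24%. Whether rRNA reads after this selection follow the amount of rRNA was not tested. The tRNA genes together had 331 to 3124 reads per library, 0.00307% to 0.00729% of gene reads. Mature tRNAs are too short and lack the tail, and what such reads derive from was not tested. No read fell on MT-TK, MT-TR or MT-TL2 in any U2OS library. Base means of at least 10 normalised reads, the minimum here for a statement on a single gene, were reached by 20 members in RIP and by 23 to 27 in the U2OS tables. These always included the 13 mRNAs and both rRNAs, so members left out were tRNA genes.

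The targeted gene was checked first. Levels are given as RPM, reads of a gene scaled to a common total of gene reads in each library. G3BP1 stood at 273 and 281 RPM in the first set's knockout, against 417 and 408 in wild type and 435 and 437 in the G3BP1 rescue, so transcript remained in the line labelled knockout. G3BP2, the paralog labelled as knocked out with it, stood at 143 and 142 RPM in that knockout, 189 and 182 in wild type and 168 and 164 in the G3BP1 rescue. In the second set the knockout held 290 and 292 RPM of G3BP1 and 127 and 125 of G3BP2, which stood at 152 to 160 in the untreated rescues. The wild-type rescue held 40180 and 38323 and the NTF2-deletion rescue 53210 and 51627, so the transgene's reads are a sizeable part of the total that other genes' shares are taken from. Other genes also set the second set's rescues apart from its knockout. Of the 8 U2OS markers, CD44, a cell surface receptor, stood at 76.6 and 72.3 RPM in the untreated knockout and at 650.3 and 649 in the untreated wild-type rescue. SPARC went the other way, from 1743 and 1674 to 622 and 626, as did FBN1 (71.8 and 78.8 to 15.8 and 17.1) and RUNX2 (15.4 and 13.2 to 5.13 and 4.64). VIM stood at 1276 and 1324 against 1400 and 1426. TWIST1 had 0 reads in 16 of 18 libraries, and COL1A2 and PRRX1 reached at most 0.943 and 6.84 RPM. Of the 5 HEK293 markers, LIN28B (13.9 to 50.8 RPM) and SALL1 (24.8 to 39.1) were present in all 18 U2OS libraries, and PAX2, SOX2 and NEFM reached at most 5.89, 5.04 and 0.422. In RIP the authors' deposited table gives base means of 1164 for LIN28B, 394 for SALL1, 218 for SOX2, 45.8 for PAX2 and 4.87 for NEFM. Of the U2OS markers the authors' deposited table lists COL1A2 at 0 there, but VIM at 11619, TWIST1 at 210, and the other 5 at 32.0 to 154. The 2 lists therefore do not separate the lines cleanly. Whether the cells differ in more than the transgene was not tested.

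The authors' tables name the MT-TS1 row, the light-strand tRNA for serine, MIR12136. RefSeq places MIR12136 on the minus strand of chromosome 1 at chr1:632615-632685 (GRCh38.p14), between the pseudogenes MTCO1P12 and MTCO2P12 in a run of nuclear copies of mitochondrial genes. Its hairpin is shown because a second locus with this name bears on which reads the row can hold, and capitals mark the mature miRNA of 18 bases.
MIR12136: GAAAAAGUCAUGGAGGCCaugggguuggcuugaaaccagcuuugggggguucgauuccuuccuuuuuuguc
The row is called MT-TS1 here by its gene identifier. Nuclear pseudogenes of mitochondrial genes took 0.0613% to 0.143% of gene reads in the U2OS libraries, and how reads that match both were assigned is not given in the sources used here. The same holds for the neighbouring pairs MT-ATP8 with MT-ATP6 and MT-ND4L with MT-ND4, which overlap on bicistronic mRNAs, and for genes that lie antisense to a long transcript of the other strand.

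Levels per gene length were ordered within each group. In wild type, MT-CO1 led with 11104 RPM per kilobase (mean of 2 libraries), followed by MT-CO2 (8908), MT-ND4 (8391), MT-RNR2 (8229) and MT-CO3 (6490). The lowest of the mRNAs and rRNAs there were MT-ATP8 (1820), MT-ND6 (1316) and MT-RNR1 (981). In the first set's knockout MT-CO1 again led, with 15238, and MT-ND6 was lowest, with 678. MT-ND5 (2398) and MT-ND3 (2388) in wild type did not differ beyond their spread over the 2 libraries.

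In the first set the knockout carried more heavy-strand mRNA and rRNA and less light-strand RNA than wild type. The 2 knockout libraries gave 11.31% and 10.99% of their gene reads to the members, the wild-type libraries 7.49% and 7.85%, and the G3BP1 rescue 8.32% and 7.77%. The knockout libraries lay above all the others, and wild type and rescue overlapped. Summed mRNA reads were 1.51-fold the wild-type level in knockout and 1.38-fold the rescue level.

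**Figure D1:**
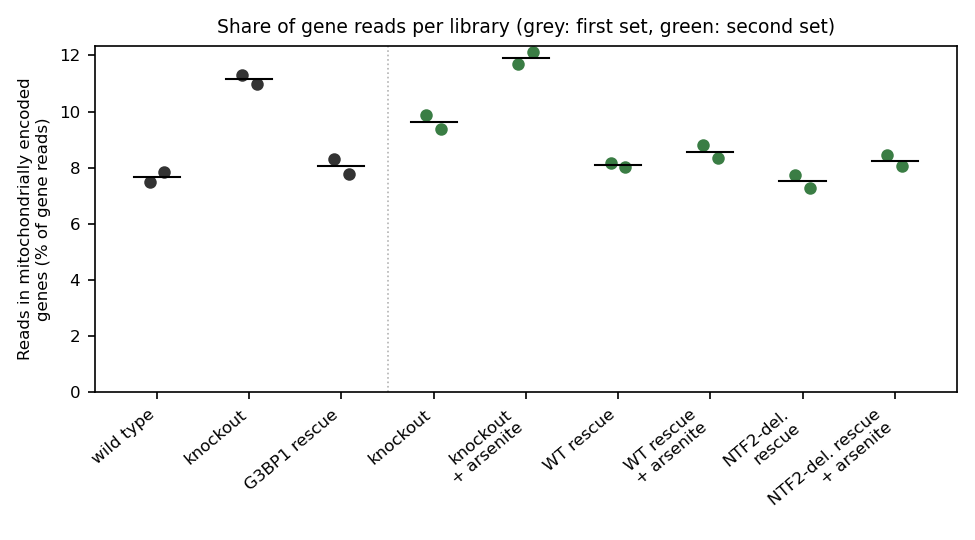
Share of gene reads in the 37 mitochondrially encoded genes for each U2OS library (points; horizontal lines are group means, n = 2); the y axis is percent of gene reads. Knockout libraries of the first set, at 11.31% and 10.99%, lie above wild type and rescue, and arsenite-treated knockout of the second set is highest, at 11.7% and 12.1%.

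Of the 27 members with base mean of at least 10, 15 were called higher and 8 lower in the authors' deposited table for knockout over wild type (authors' adjusted p under 0.05). Over all genes tested there, 18.4% were called higher and 19.4% lower. Of the 20718 genes with base mean of at least 10, 4605 were called higher and 4907 lower. All 12 heavy-strand mRNAs were called higher, and their log2 fold changes in the authors' deposited table ran from 0.26 to 1.09, with a median of 0.73 beside 0.01 over all genes with that base mean. All 7 light-strand members with enough reads were called lower, with a median of -1.83 in the authors' deposited table. With the authors' Wald statistics divided by their own robust spread over genes (4.45 here), 7 of these calls were left, all higher: MT-RNR1, MT-TM, MT-ND2, MT-ATP6, MT-CO3, MT-ND5 and MT-CYB. No light-strand member was called then, MT-ND6 included, and 3.63% of all genes were. The plot of the first set shows these values gene by gene.

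MT-CO1, the catalytic core of cytochrome c oxidase, had 23748 and 23245 RPM in knockout and 16644 and 17601 in wild type. MT-CO3, another core subunit of that complex, had 10081 and 9689 in knockout and 4894 and 5282 in wild type. MT-ND2, a complex I subunit, had 6070 and 5903 against 3024 and 3241. These groups did not overlap, and neither did those of any other heavy-strand mRNA (38.2% of all genes were higher without overlap in this comparison). MT-CO2 had the smallest change of the 12 and MT-ATP8 the largest, at 0.26 (SE 0.04) and 1.09 (SE 0.19) in the authors' deposited table. Between them in the same authors' deposited table lay MT-ND1 (0.44), MT-CO1 (0.47), MT-ND4 (0.50), MT-ND4L (0.54), MT-ND3 (0.73), MT-ND5 (0.74), MT-CYB (0.83), MT-ND2 (0.95), MT-ATP6 (0.96) and MT-CO3 (0.97).

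MT-ND6, the complex I subunit read from the other strand, had 370 and 342 RPM in knockout, 724 and 658 in wild type, and 516 and 540 in the rescue. The 3 groups did not overlap, and the rescue lay between the other two. Over all genes, 39.7% were lower without overlap in knockout than in wild type, 36.0% lower in knockout than in the rescue and 41.8% higher in wild type than in the rescue. In the authors' deposited table MT-ND6 had a log2 fold change of -0.93 in knockout over wild type (SE 0.12, DESeq2 adjusted p = 8.02e-15). MT-ND6 reads were 0.376% ± 0.0135 (SD, n = 2) of the summed heavy-strand mRNA reads in knockout, 1.11% ± 0.119 in wild type and 0.775% ± 0.0671 in the rescue. This share does not depend on how libraries are scaled.

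The light-strand tRNA genes went the same way with far fewer reads. MT-TE, the tRNA gene for glutamate next to MT-ND6, had 1.506 and 2.099 RPM in knockout and 10.1 and 10.8 in wild type. It was the lowest member in the authors' deposited table, at -2.39 (SE 0.21, DESeq2 adjusted p = 3.88e-29). MT-TQ, the glutamine tRNA gene, had 4.14 and 5.68 in knockout against 17.4 and 19.1 in wild type. MT-TS1 (-2.29), MT-TQ (-1.83), MT-TA for alanine (-1.83), MT-TY for tyrosine (-1.63) and MT-TP for proline (-0.47) were also called lower in the authors' deposited table. Of the heavy-strand tRNA genes, MT-TT for threonine was called lower in the authors' deposited table (-0.73), and MT-TI, MT-TW, MT-TF and MT-TD were not called. The 6 heavy-strand tRNA genes with enough reads had a median of -0.33 in that table, with 4 below 0 and 2 above. They therefore did not follow the heavy-strand mRNAs as a class.

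MT-TM, the methionine tRNA gene just before MT-ND2, was the highest member. It had 895 and 546 reads in the knockout libraries (17.1 and 14.1 RPM), 23 and 20 in wild type (0.511 and 0.467 RPM) and 343 and 317 in the rescue (6.95 and 6.39 RPM). Its mean level was 31.9-fold higher in knockout than in wild type. The authors' deposited table gives a log2 fold change of 4.60 (SE 0.24, DESeq2 adjusted p = 2.88e-78). In the second set, MT-TM had 12.6 and 8.15 RPM in knockout and 10.7 and 6.89 in the wild-type rescue, so those overlapped.

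Of the rRNAs, MT-RNR1 was lowest in wild type and MT-RNR2 in the rescue. MT-RNR1 had 2424 and 2347 RPM in knockout, 1755 and 1596 in the rescue and 927 and 946 in wild type. MT-RNR2 had 14189 and 13782 in knockout and 12732 and 12926 in wild type, with the rescue lowest at 9988 and 9917. In the authors' deposited table MT-RNR1 changed by 1.36 (SE 0.04) between knockout and wild type and MT-RNR2 by 0.14 (SE 0.04). The ratio of MT-RNR1 to MT-RNR2 reads was 0.171 and 0.170 in knockout and 0.176 and 0.161 in the rescue, which overlapped, and 0.0728 and 0.0732 in wild type.

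**Figure D2:**
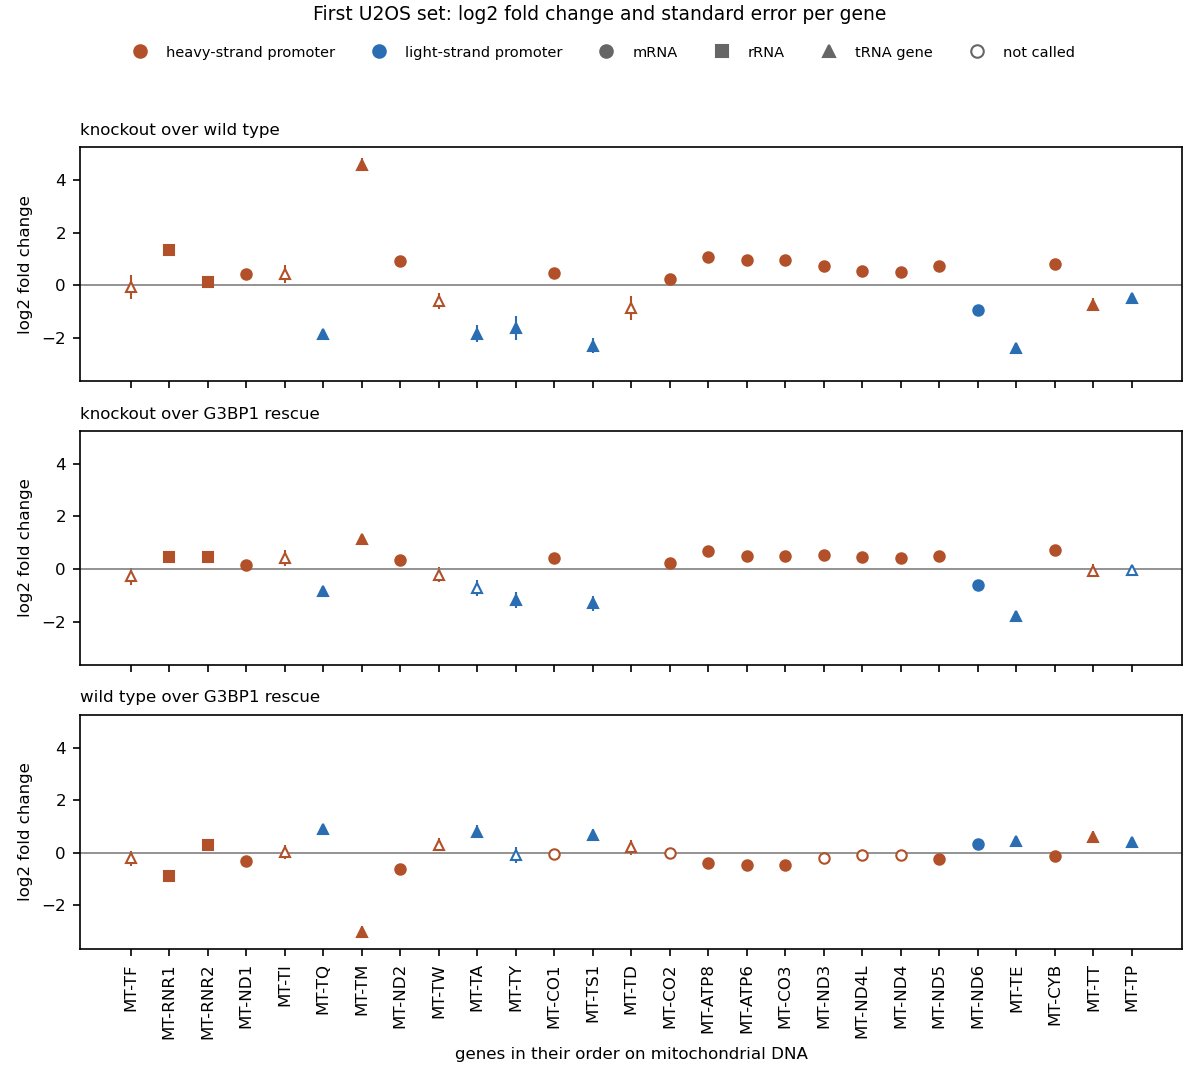
Log2 fold change (y axis) of each member with base mean of at least 10, in gene order along mitochondrial DNA (x axis), in the authors' deposited tables of the first U2OS set; bars are the authors' standard errors, filled symbols are called at adjusted p under 0.05, colours mark the promoter. In knockout over wild type all 12 heavy-strand mRNAs lie above 0 and all 7 light-strand members below 0; MT-TM is highest at 4.60.

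The heavy-strand mRNAs were also higher in knockout than in knockout cells given G3BP1. Knockout over G3BP1 rescue had 15 of 26 members called higher and 5 lower in the authors' deposited table, beside 16.1% and 21.5% of all genes. All 12 heavy-strand mRNAs were called higher in the authors' deposited table, from 0.14 (MT-ND1) to 0.73 (MT-CYB). With Wald statistics over their spread (4.13), only the calls of MT-ND5 and MT-CYB were left, beside 2.03% of all genes. MT-TE was again lowest in the authors' deposited table (-1.80, SE 0.21, DESeq2 adjusted p = 2.82e-16), and MT-TM highest (1.13, SE 0.15, DESeq2 adjusted p = 2.25e-13). MT-ND6 was lower in knockout than in the rescue in the authors' deposited table (-0.60, SE 0.05, DESeq2 adjusted p = 4.7e-29).

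Wild type had less heavy-strand and more light-strand RNA than the rescue for most members called. Of 27 members, 8 were called higher and 9 lower in wild type over rescue in the authors' deposited table, beside 15.2% and 20.4% of all genes. MT-TM was lowest in the authors' deposited table (-3.01, SE 0.23, DESeq2 adjusted p = 9.8e-37) and MT-TQ highest (0.91, SE 0.13, DESeq2 adjusted p = 5.3e-12). MT-ND6 was higher in wild type in the authors' deposited table (0.32, SE 0.05, DESeq2 adjusted p = 2.01e-08). Of the heavy-strand mRNAs, 7 of 12 were called lower in wild type in the authors' deposited table, led by MT-ND2 (-0.61), MT-ATP6 (-0.46) and MT-CO3 (-0.46). MT-CO1 (-0.07), MT-CO2 (-0.03), MT-ND3 (-0.19), MT-ND4 (-0.09) and MT-ND4L (-0.08) were not called in the authors' deposited table. MT-CYB was called lower in wild type in the authors' deposited table (-0.11) and was not called by limma-voom. With Wald statistics over their spread (3.86), MT-RNR1, MT-TM and MT-ND2 were called lower in wild type and no member higher, beside 1.74% of all genes. The 3 tables of this set share libraries, so they are not independent of each other.

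In the second set MT-ND6 and MT-TP, both of the light strand, were called higher in both rescues than in knockout. Of the 12 heavy-strand mRNAs, 3 were called higher and 4 lower in the wild-type rescue, beside 23.0% and 19.1% of all genes. In the NTF2-deletion rescue 1 was called higher and 5 lower, beside 22.8% and 18.7%. Summed mRNA reads in RPM were 0.804 and 0.747 times the knockout level in these rescues. The members took 9.86% and 9.37% of gene reads in the untreated knockout, 8.16% and 8.02% in the wild-type rescue and 7.75% and 7.27% in the NTF2-deletion rescue. The knockout lay above both rescues. With G3BP1 reads taken out of the total, the group means were 9.62%, 8.42% and 7.93%. Directions of single genes depend on the scale here. The authors' fold changes had a median of 0.18 and 0.17 over genes with base mean of at least 100 in the authors' deposited tables, and changes below are best read relative to that shift. With Wald statistics over their spread, no member was called in either rescue over knockout, beside 2.38% and 2.07% of all genes.

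The wild-type rescue had 7 of 23 members called higher and 4 lower than in knockout in the authors' deposited table, beside 23.0% and 19.1% of all genes. Of the 16382 genes with base mean of at least 10, 4723 were called higher and 3774 lower. The member counts were near those shares. With the median taken out and calls made again, 4 were called higher and 7 lower. None of the 11 called before changed sign, and the shares above are for uncentred calls. After centring, 12 of 23 members lay above 0 and 11 below, beside 6898 and 9484 of 16382 genes with base mean of at least 10. MT-ND6 had 503 and 505 RPM in the wild-type rescue and 383 and 432 in knockout, with no overlap. MT-ND6 was called higher in the authors' deposited table (0.55, SE 0.06, DESeq2 adjusted p = 3.65e-18), as were MT-TP (0.85), MT-ND2 (0.43), MT-ND1 (0.37), MT-RNR1 (0.34), MT-RNR2 (0.30) and MT-ND3 (0.21). MT-ND3 had a ratio of 0.980 in RPM, and limma-voom lost its call without knockout library b. MT-RNR1 and MT-RNR2 of the 2 groups overlapped in RPM. MT-ND5 was lowest in the authors' deposited table (-0.42, SE 0.04, DESeq2 adjusted p = 1.76e-24), followed by MT-CO3 (-0.32), MT-CYB (-0.29) and MT-CO1 (-0.14), all called lower. The highest fold change in the authors' deposited table, 1.19 (SE 0.59) for MT-TI, the isoleucine tRNA gene, was not called (DESeq2 adjusted p = 0.0947).

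MT-ND5 had 6881 and 6429 RPM in knockout and 4278 and 4107 in the wild-type rescue. MT-ND1 had 4893 and 4453 in knockout and 5151 and 5089 in the wild-type rescue. These 2 complex I subunits therefore moved in opposite directions on both scales, and neither pair of groups overlapped (31.3% of all genes were higher and 51.5% lower without overlap). Along the 12 heavy-strand mRNAs, the fold change fell with the position of the gene, with a Spearman rho of -0.66 across genes, which share libraries and a transcript. In knockout over G3BP1 rescue of the first set, where the direction of the ratio is turned round, rho across the same 12 genes was 0.66, and in knockout over wild type it was 0.20.

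The NTF2-deletion rescue was set against the same knockout libraries. It had 5 of 24 members called higher and 5 lower in the authors' deposited table, beside 22.8% and 18.7% of all genes. Of the 16485 genes with base mean of at least 10, 4701 were called higher and 3751 lower. With the median taken out and calls made again, 4 were called higher and 6 lower, and none of the 10 called before changed sign. After centring, 12 of 24 members lay above 0 and 12 below, beside 6991 and 9494 of 16485 genes with base mean of at least 10. MT-ND5 was lowest in the authors' deposited table (-0.43, SE 0.05, DESeq2 adjusted p = 8.78e-17) and MT-TI highest (1.60, SE 0.56, DESeq2 adjusted p = 0.0127). MT-ND6 was called higher in the authors' deposited table (0.65, SE 0.07, DESeq2 adjusted p = 5.32e-17), with 491 and 573 RPM against 383 and 432 in knockout. MT-RNR2 was called higher in the authors' deposited table (0.22) but had a ratio of 0.967 in RPM. The 2 rescues were compared through the knockout libraries they share, which makes the error too wide. No member differed at adjusted p under 0.05 (0.0185% of all genes did), and 0 members had an unadjusted p under 0.05. The limma-voom fit on recovered reads, which compares the rescues directly, called MT-ND1 and MT-CO1 higher in the wild-type rescue, by 0.16 (SE 0.04, limma adjusted p = 0.0128) and 0.11 (SE 0.03, limma adjusted p = 0.0411), beside 1.08% of all genes called in either direction. Limma-voom called 0 members without wild-type rescue library a or b or NTF2-deletion rescue library b, and 5 without either knockout library. The 1.08% is from the fit on all libraries, and shares of all genes without 1 library are not given here.

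Arsenite lowered MT-ND6 in all 3 backgrounds while no heavy-strand mRNA was called lower. MT-ND6 went from 383 and 432 to 310 and 324 RPM in knockout. It went from 503 and 505 to 327 and 338 in the wild-type rescue, and from 491 and 573 to 322 and 325 in the NTF2-deletion rescue. Treated and untreated libraries did not overlap in any background (33.3%, 27.6% and 26.5% of all genes were lower without overlap), and the treated groups of all 3 ended within 310 to 338. MT-ND6 was the lowest member in each authors' deposited table, at -0.34 (SE 0.07, DESeq2 adjusted p = 5.19e-05), -0.60 (SE 0.04, DESeq2 adjusted p = 3.98e-61) and -0.63 (SE 0.09, DESeq2 adjusted p = 5.13e-10). As a share of heavy-strand mRNA reads, MT-ND6 went from 0.506% ± 0.0721 to 0.327% ± 0.00322 in knockout (SD, n = 2). The shares were 0.777% ± 0.0146 and 0.463% ± 0.0297 in the wild-type rescue, and 0.888% ± 0.149 and 0.482% ± 0.0224 in the NTF2-deletion rescue.

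**Figure D3:**
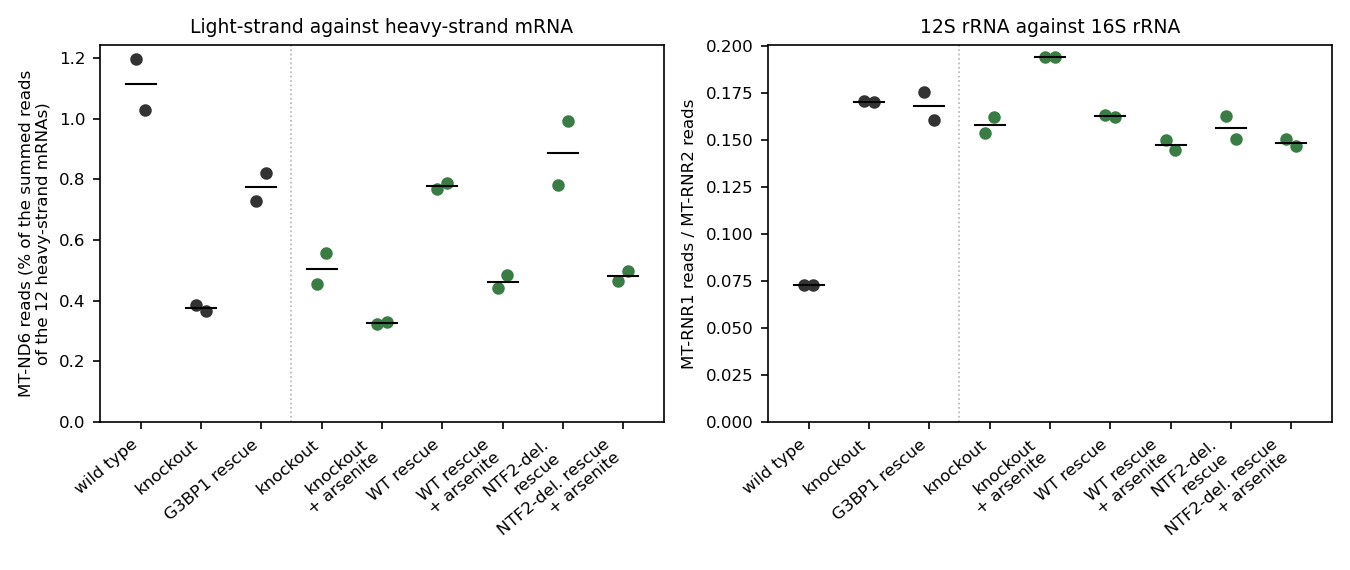
MT-ND6 reads as percent of the summed reads of the 12 heavy-strand mRNAs (left) and the ratio of MT-RNR1 to MT-RNR2 reads (right), for each U2OS library (points; lines are group means, n = 2). MT-ND6 is lower with arsenite in each background of the second set, and wild type of the first set has the lowest rRNA ratio, 0.0728 and 0.0732.

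With arsenite in knockout, by the authors' deposited table, 11 of 23 members (19 with an adjusted p) were called higher and 1, MT-ND6, lower, beside 8.56% and 10.9% of all genes. In that for the wild-type rescue, 8 of 24 (22 with an adjusted p) were called higher and 3 lower in the authors' deposited table, beside 8.18% and 12.2%. In that for the NTF2-deletion rescue, 5 of 24 (18 with an adjusted p) were called higher and 1 lower in the authors' deposited table, beside 2.43% and 6.14%. With Wald statistics over their spread (2.05, 1.93 and 1.29), the calls left in knockout were MT-RNR2 and MT-CO1, and MT-ND6 and MT-RNR1 lost theirs. In the wild-type rescue MT-ATP6, MT-ND4, MT-RNR1, MT-RNR2 and MT-ND6 were then called, and in the NTF2-deletion rescue MT-ATP8, MT-ATP6, MT-ND4 and MT-ND6. Over all genes 3.74%, 3.97% and 2.84% were called that way. Medians over the 12 heavy-strand mRNAs were 0.30, 0.15 and 0.13 in the authors' deposited tables. Over all genes with base mean of at least 10 the medians were 0.00, 0.00 and 0.01. The authors' shrinkage toward 0 differed between these tables, with a prior width of 0.637, 0.372 and 0.280 on the log2 scale, so sizes are not fully comparable across them.

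MT-ATP6 and MT-ND4 were called higher in all 3 backgrounds. MT-ATP6, a subunit of the proton channel of ATP synthase, had 6125 and 5543 RPM in knockout and 7135 and 7652 with arsenite. In the wild-type rescue MT-ATP6 went from 4960 and 4750 to 5774 and 5818. In the authors' deposited tables MT-ATP6 changed by 0.36, 0.25 and 0.27, and MT-ND4 by 0.29, 0.21 and 0.22. MT-ATP8 was highest in the NTF2-deletion rescue in the authors' deposited table (0.37, SE 0.05, DESeq2 adjusted p = 2.14e-12). MT-TI was highest in the wild-type rescue in the authors' deposited table (0.50, SE 0.18, DESeq2 adjusted p = 0.0366), and in limma-voom that call was lost without untreated library a, untreated library b or treated library a. MT-CO1, MT-CO2 and MT-CYB were called higher in knockout and in the wild-type rescue. In the authors' deposited tables for these backgrounds MT-CO1 changed by 0.31 and 0.15, MT-CO2 by 0.32 and 0.16 and MT-CYB by 0.30 and 0.17. Without 1 library, limma-voom lost MT-ND2 in knockout (untreated library b), MT-CO2 and MT-TW in the wild-type rescue, and MT-ND3 and MT-ND5 in the NTF2-deletion rescue (untreated library b or treated library a in both rescues). The calls of MT-TW and MT-ND3 there were also lost without untreated library a. MT-ND1 was called in no background, with values of 0.14, -0.12 and 0.01 in the authors' deposited tables.

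**Figure D4:**
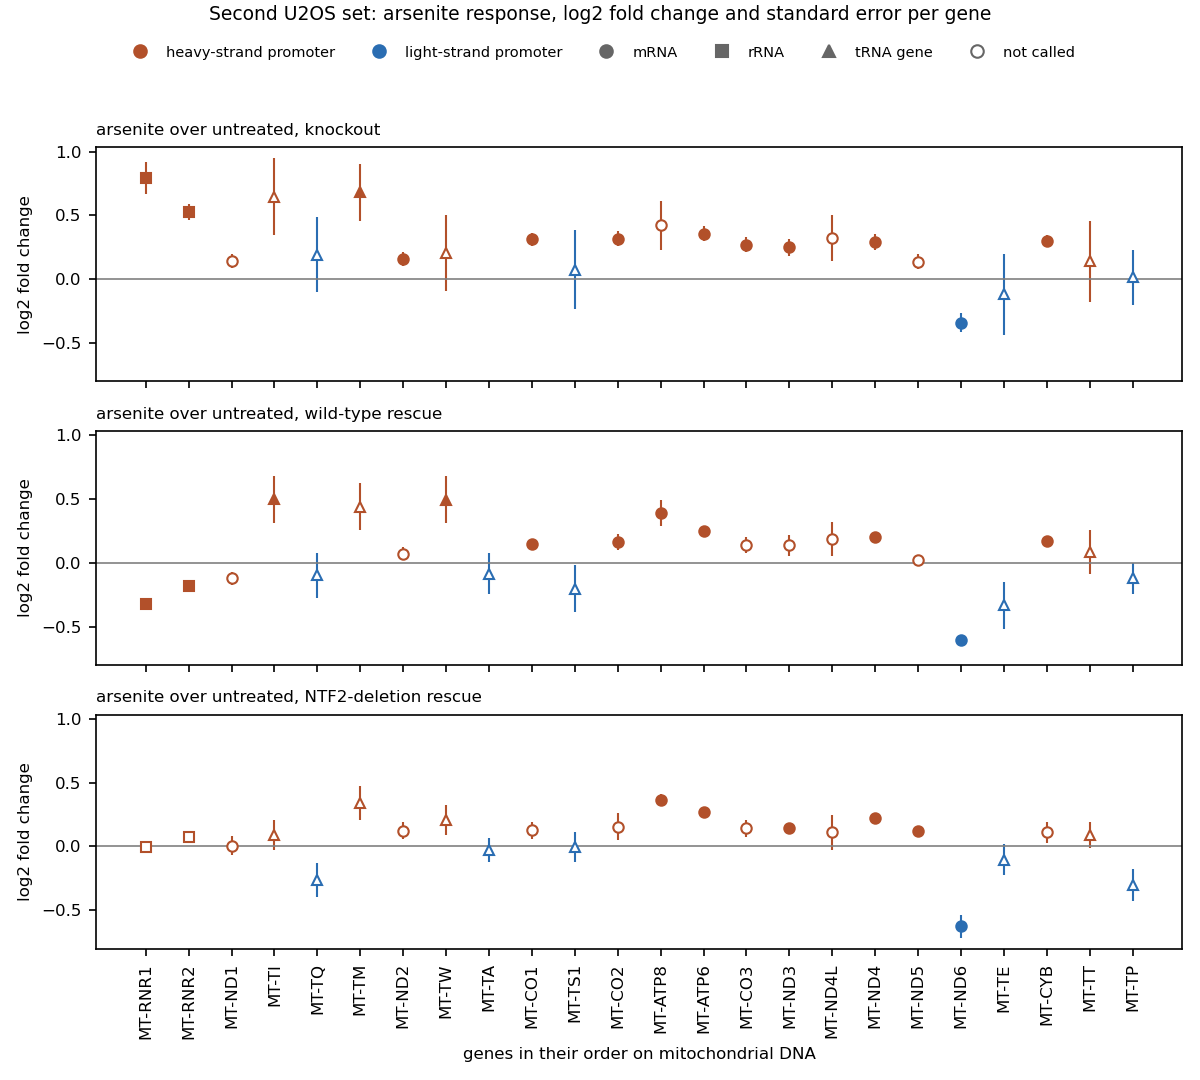
Log2 fold change of arsenite over untreated (y axis) for members with base mean of at least 10, in gene order (x axis), in 3 authors' deposited tables; bars are the authors' standard errors and filled symbols are called. MT-ND6 lies at -0.34, -0.60 and -0.63, and the rRNAs lie above 0 in knockout and below 0 in the wild-type rescue.

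Reads of the rRNAs changed in opposite directions with arsenite in knockout and in the wild-type rescue. The libraries were selected for poly-A RNA, and whether the amount of rRNA changed was not tested. MT-RNR1 rose from 1849 and 2201 to 3455 and 3631 RPM with arsenite in knockout. It fell from 2168 and 2166 to 1797 and 1675 in the wild-type rescue. In the NTF2-deletion rescue it stood at 2001 and 1871 untreated and 1969 and 1893 treated, which overlapped. The fold changes of MT-RNR1 in the authors' deposited tables were 0.79 (SE 0.13, DESeq2 adjusted p = 6.93e-09), -0.32 (SE 0.04, DESeq2 adjusted p = 6.32e-18) and 0.00 (SE 0.04, not called). MT-RNR2 went from 12036 and 13557 to 17784 and 18719 in knockout, and from 13256 and 13327 to 11955 and 11559 in the wild-type rescue. In the NTF2-deletion rescue MT-RNR2 stood at 12301 and 12444 untreated and 13066 and 12904 treated, a change of 0.07 in the authors' deposited table that was not called.

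Tests of the difference between responses were made across all genes. MT-RNR1 responded less in the wild-type rescue than in knockout by 1.12 (difference -1.12, SE 0.13) and MT-RNR2 by 0.71 (difference -0.71, SE 0.07) on the log2 scale. MT-ND1 (difference -0.26, SE 0.08, adjusted p = 0.0178 across genes of the DESeq2 tables) and MT-ND6 (difference -0.26, SE 0.08, adjusted p = 0.0324 across genes of the DESeq2 tables) were also called lower. These 4 of 23 members stand beside 2.68% of all genes called lower and 1.82% called higher. For the NTF2-deletion rescue against knockout, 2 of 23 members were called, MT-RNR1 (difference -0.79, SE 0.13) and MT-RNR2 (difference -0.45, SE 0.07), beside 3.08% of all genes called lower. The same rRNAs differed between the 2 rescues, MT-RNR1 by -0.32 (SE 0.05) and MT-RNR2 by -0.26 (SE 0.04), wild-type minus NTF2-deletion, beside 0.227% of all genes called lower. The rRNA differences had the same direction and were called with each alternative run on all libraries, limma-voom included. In limma-voom the differences between the 2 rescues were lost for both rRNAs without wild-type rescue library a or b, arsenite-treated wild-type rescue library b or arsenite-treated NTF2-deletion rescue library a. With both rescues under arsenite, compared through the untreated knockout, 0 members differed (0.0785% of all genes did), and 1 had an unadjusted p under 0.05. Limma-voom, which compares these groups directly, called 4 members, beside 3.22% of all genes. MT-RNR1 (-0.17, SE 0.04, limma adjusted p = 0.0193) and MT-RNR2 (-0.16, SE 0.03, limma adjusted p = 0.00042) were lower in the wild-type rescue, and MT-CO1 (0.14, SE 0.03, limma adjusted p = 0.00171) and MT-ND3 (0.15, SE 0.04, limma adjusted p = 0.0446) higher. Leaving out 1 library gave 1 member (without treated NTF2-deletion rescue library b) to 8 (without knockout library b). The 3.22% is from the fit on all libraries, and shares of all genes without 1 library are not given here.

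Arsenite-treated rescues were also set against the untreated knockout, which mixes both factors. For the wild-type rescue, by the authors' deposited table, 10 of 24 members were called higher and 1 lower, beside 25.1% and 19.8% of all genes. With the median of 0.22 taken out and calls made again, 5 were called higher and 5 lower, and MT-ND4, called before, changed sign. After centring, 15 of 24 members lay above 0 and 9 below, beside 7164 and 9937 of 17102 genes with base mean of at least 10. For the NTF2-deletion rescue, by the authors' deposited table, 9 of 24 were called higher and 4 lower, beside 23.3% and 19.6%. With the median of 0.19 taken out and calls made again, 4 were called higher and 5 lower, and MT-ATP6, called before, changed sign. After centring, 14 of 24 members lay above 0 and 10 below, beside 7020 and 9584 of 16604 genes with base mean of at least 10. Directions also depended on the scale, with 21 and 19 of 24 members above 0 as deposited but 13 and 10 in RPM. Of the calls, MT-CO2, MT-ATP6 and MT-ND4 had the other sign in RPM for the wild-type rescue. For the NTF2-deletion rescue these were MT-ND1, MT-ATP6 and MT-ND3. With Wald statistics over their spread, no member was called in either comparison, beside 2.03% and 2.02% of all genes. MT-TI was highest in both authors' deposited tables (2.43, SE 0.54, DESeq2 adjusted p = 2.41e-05, and 2.08, SE 0.56, DESeq2 adjusted p = 0.000684). MT-ND5 was lowest in both authors' deposited tables (-0.34, SE 0.04, DESeq2 adjusted p = 2.55e-15, and -0.30, SE 0.04, DESeq2 adjusted p = 2.07e-11). Limma-voom lost MT-CO2 and MT-ND4 for the wild-type rescue and MT-TM, MT-ATP6 and MT-ND3 for the NTF2-deletion rescue without knockout library b. It lost MT-CO2 and MT-ND4, and MT-ND3, also without library a of the treated rescue. MT-ND6 was not called in either authors' deposited table (0.00, SE 0.06, DESeq2 adjusted p = 0.988, and -0.05, SE 0.07, DESeq2 adjusted p = 0.626).

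In RIP 18 of 20 members had fold changes below 0, most with wide errors. The members made up 3.44% of the summed base means of all genes. All 13 mRNAs had fold changes below 0 in the authors' deposited table, with a median of -0.49 beside 0.01 over all genes with base mean of at least 10. Only 4 of 20 members were called, all lower in IP, beside 31.4% of all genes called lower and 24.7% higher. Of the 14779 genes with base mean of at least 10, 5606 were called lower and 5488 higher. MT-ND6 was lowest in the authors' deposited table (-1.84, SE 0.11, DESeq2 adjusted p = 9.39e-64), followed by MT-RNR1 (-1.70, SE 0.36), MT-RNR2 (-1.28, SE 0.36) and MT-TP (-1.17, SE 0.34). MT-TQ was highest in the authors' deposited table and not called (0.37, SE 0.40, DESeq2 adjusted p = 0.447). The 12 heavy-strand mRNAs ran from -0.82 (MT-ND2) to -0.24 (MT-CO3) in the authors' deposited table, with standard errors of 0.37 to 0.53, beside a median standard error of 0.15 over genes with base mean of at least 100. With Wald statistics over their spread (9.34) no member was called, beside 0.0135% of all genes. Values per library were not recovered for RIP, so which libraries carry that spread was not tested.

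**Figure D5:**
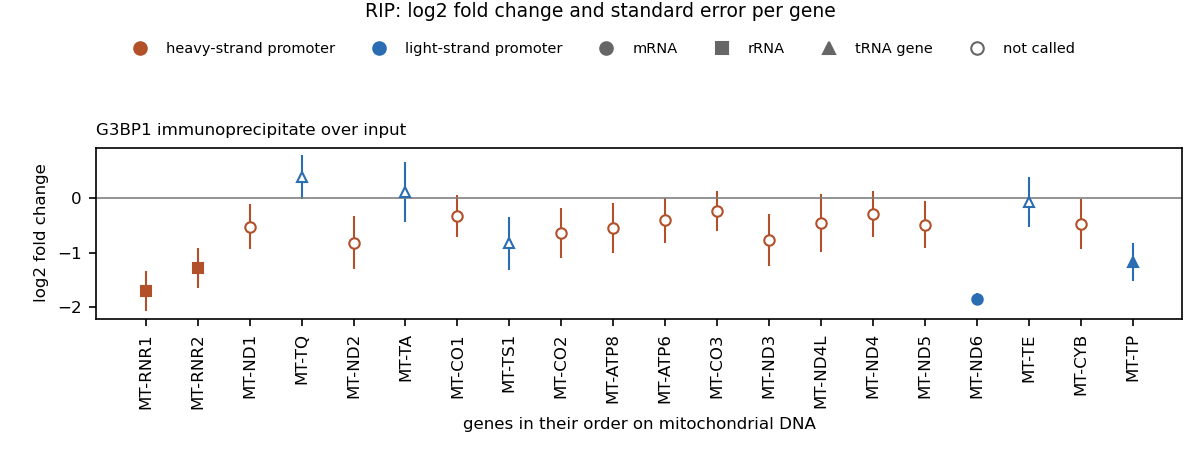
Log2 fold change of IP over input (y axis) for the 20 members with base mean of at least 10, in gene order (x axis), in the authors' deposited table; bars are the authors' standard errors. MT-ND6, at -1.84 with a standard error of 0.11, stands apart from the heavy-strand mRNAs, whose standard errors are 0.37 to 0.53.

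A list of 37 nuclear genes for mitochondrial DNA maintenance, transcription and RNA processing was read beside the members. This list, too, was chosen with earlier results of these data known. It holds, for example, POLRMT (the mitochondrial RNA polymerase), TFB2M (a transcription initiation factor) and TWNK (the replicative helicase). In the second set 29 of 37 were called higher and 0 lower in the wild-type rescue over knockout in the authors' deposited table, and 29 and 0 in the NTF2-deletion rescue. Over all genes 23.0% and 22.8% were called higher in these tables, and 19.1% and 18.7% lower. The list medians were 0.76 and 0.78 in the authors' deposited tables, beside 0.03 in both over genes with base mean of at least 10. Over genes with base mean of at least 100 the medians were 0.18 and 0.17. TWNK was highest in both authors' deposited tables (1.58, SE 0.10, and 1.52, SE 0.10). In the first set, 0 were called higher and 23 lower in knockout over G3BP1 rescue in the authors' deposited table, with TFB2M lowest (-0.68), beside 16.1% and 21.5% of all genes. In knockout over wild type 6 were called higher and 10 lower in the authors' deposited table, from TRNT1, which adds the CCA end to tRNAs (-0.88), to NGRN (0.62), beside 18.4% and 19.4% of all genes. In wild type over rescue 2 were higher and 20 lower in the authors' deposited table, from TRMT10C, a subunit of mitochondrial RNase P (-0.64), to PRORP, the catalytic subunit of that enzyme (0.62), beside 15.2% and 20.4% of all genes. With arsenite 2 were higher and 3 lower in knockout, 2 and 2 in the wild-type rescue, and 0 and 0 in the NTF2-deletion rescue in the authors' deposited tables. The shares of all genes were 8.56% and 10.9%, 8.18% and 12.2%, and 2.43% and 6.14%. In RIP 21 were higher and 9 lower in the authors' deposited table, from LRPPRC, a stabiliser of mitochondrial mRNAs (-2.84), to HSD17B10, another subunit of RNase P (2.49), beside 24.7% and 31.4% of all genes.

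Nuclear copies of mitochondrial genes were read the same way. In knockout over wild type 8 of 19 pseudogenes with base mean of at least 10 were called higher and 0 lower in the authors' deposited table, beside 18.4% and 19.4% of all genes, with values from -0.32 to 1.86 and a median of 0.52. In knockout over G3BP1 rescue it was 6 and 0 of 18 in the authors' deposited table, beside 16.1% and 21.5% of all genes. In wild type over rescue it was 0 and 3 of 17, beside 15.2% and 20.4% of all genes, so the lower calls there were near that share. The 2 pseudogenes with the highest base means had values near those of the genes they resemble, chosen after their values were seen. MTATP6P1, the pseudogene with the highest base mean, changed by 0.94 (SE 0.05) in knockout over wild type in the authors' deposited table, beside 0.96 for MT-ATP6. MTND2P28 changed by 0.87 (SE 0.06) in the same authors' deposited table, beside 0.95 for MT-ND2. MTND6P35 went against MT-ND6, at 1.32 (SE 0.44, called higher) in the authors' deposited table beside -0.93. MTCO1P48 was at 1.86 (SE 0.39) in the authors' deposited table beside 0.47 for MT-CO1. With arsenite in knockout MTATP6P1 changed by 0.35 in the authors' deposited table, beside 0.36 for MT-ATP6, and MTND2P28 by 0.09 (not called) beside 0.16 for MT-ND2. Whether these are reads of the mitochondrial transcripts was not tested.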

How the data were processed

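The data were 11 tables of the authors' own DESeq2 comparisons, each with 61541 genes and 4 summary lines of read counting, which were left out of every count and test. The submitters' processing notes list STAR 2.7.0f for the RIP and first-set samples, STAR 1.5.3 for the second-set samples and DESeq2 2.11.40.6. The genome build, the annotation and whether counting used the strand are not given in the sources used here. Base means are a deposited signal: size-factor normalised counts of reads, averaged by the authors across the 2 groups compared. The deposited fold change and standard error are on the log2 scale, first group over second, shrunk toward 0 by a normal prior, as their relation to the deposited standard errors shows. The deposited Wald statistic is a score, and the deposited p-value and adjusted p-value follow from it. The tables' symbol column does not carry MT-, so members were found by gene identifier through a table of gene names. The 13 mRNAs and both rRNAs are named with values, tRNA genes where their base mean is at least 10, and full statistics are given for the highest and lowest member and MT-ND6.

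Whole reads per library were recovered from the deposited base means for 38467 of 38470 and 38910 of 38913 lines above 0 in the first and second U2OS set. Steps of single reads gave each library's size factor, and lattice reduction (sympy 1.14.0) gave whole reads that matched all tables of a set within a relative tolerance of 2e-14. The 3 lines left in each set were summary lines. Size factors computed again from the recovered reads differed by at most 5.83e-05 in relative terms. RPM were computed over gene reads. The libraries carry no replicate number and are lettered a and b by size factor, and every mean ± SD has n = 2. Intervals of counting error are not given, since PCR reads are not independent molecules.

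Calls use the authors' adjusted p under 0.05. Shares of all genes beside the authors' calls are over every gene with an adjusted p. In RIP, the first set and the comparisons of a rescue with untreated knockout they include genes below base mean 10, whereas members counted reach it. Differences between responses were tested as the difference of 2 fold changes over the root of the summed squared standard errors, with Benjamini-Hochberg adjustment over all genes with base mean of at least 10. As an alternative, Wald statistics were divided by their scaled median absolute deviation over genes with base mean of at least 100, and p-values were adjusted again over genes with base mean of at least 10. Limma-voom (limma 3.58.1) on recovered reads, for genes averaging at least 10 reads, and its repeat without each library were added after seeing the data. Read recovery, the difference test and limma-voom were tested on simulated data. The members and lists were chosen with earlier results of these data known. Gene order and lengths come from RefSeq (GRCh38.p14).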

Additional observations from a re-analysis of the deposited data

Results flagged for a closer look

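Arsenite responses that differed between backgrounds, by the test of the difference itself, were those of 4 members. For wild-type rescue minus knockout the differences were -1.12 for MT-RNR1, -0.71 for MT-RNR2, -0.26 for MT-ND1 and -0.26 for MT-ND6 on the log2 scale. Over all genes 2.68% were called lower there and 1.82% higher. For NTF2-deletion rescue minus knockout they were -0.79 for MT-RNR1 and -0.45 for MT-RNR2, beside 3.08% of all genes called lower. For wild-type rescue minus NTF2-deletion rescue they were -0.32 for MT-RNR1 and -0.26 for MT-RNR2, beside 0.227% called lower. In limma-voom both differences between the rescues were lost when any of several single libraries, named above, was left out. The changes in rRNA reads had opposite signs in knockout and in the wild-type rescue. MT-ND6 changed by -0.34 in knockout, -0.60 in the wild-type rescue and -0.63 in the NTF2-deletion rescue in the authors' deposited tables. The larger fall was therefore not seen in the wild-type rescue alone. For MT-ND6, the difference from knockout was called only for the wild-type rescue, and none was called between the rescues. Shrinkage differed between these tables, so sizes are not fully comparable.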

How the results depend on the processing

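No paired analysis was possible because the libraries recovered from the base means carry no replicate numbers. The number of members called moved by less than 1.5 times when fold changes were centred, p-values were adjusted over genes with base mean of at least 10, or only members with base mean of at least 100 were kept. With Wald statistics divided by their own robust spread, 0 members were called in RIP, beside 0.0135% of all genes. Then 7 were called in knockout over wild type, 2 in knockout over G3BP1 rescue and 3 in wild type over G3BP1 rescue. The shares of all genes were 3.63%, 2.03% and 1.74%. For arsenite they were 2 in knockout, 5 in the wild-type rescue and 4 in the NTF2-deletion rescue, beside 3.74%, 3.97% and 2.84%. In each of the 4 comparisons of a rescue with the untreated knockout 0 were called, beside 2.38%, 2.07%, 2.03% and 2.02%. Limma-voom called 17 members for arsenite in the wild-type rescue, 14 for arsenite in the NTF2-deletion rescue and 20 for the NTF2-deletion rescue over knockout, beside 20.0%, 12.9% and 66.3% of all genes tested in either direction. For differences it called 5 (NTF2-deletion rescue minus knockout), 2 (rescues untreated) and 4 (rescues with arsenite), beside 13.7%, 1.08% and 3.22%. The cause was not tested. With the prior undone, by a formula checked on the recovered reads, the same number of members differed. Leaving out 1 library at a time in limma-voom gave 23 to 25 members in knockout over wild type and 20 to 22 in knockout over G3BP1 rescue. It gave 16 to 18 in wild type over G3BP1 rescue. With all libraries, 59.1%, 53.8% and 51.7% of all genes tested were called in these comparisons, in either direction. For arsenite, leaving out 1 library gave 13 to 17 in knockout, 10 to 17 in the wild-type rescue and 4 to 16 in the NTF2-deletion rescue. The shares of all genes with all libraries were 34.8%, 20.0% and 12.9%. Against knockout, leaving out 1 library gave 14 to 17 for the wild-type rescue and 15 to 20 for the NTF2-deletion rescue. For these with arsenite it gave 12 to 18 and 12 to 19. With all libraries, 66.6%, 66.3%, 71.9% and 69.1% of all genes were called in these 4 comparisons. Members whose arsenite response differed were 3 to 9 (wild-type rescue minus knockout), 3 to 13 (NTF2-deletion rescue minus knockout) and 0 to 2 (between rescues). Members differing between rescues were 0 to 5 without and 1 to 8 with arsenite. With all libraries, the shares of all genes for these 5 were 10.7%, 13.7%, 0.132%, 1.08% and 3.22%. No library was left out for RIP, whose reads were not recovered. The 13 mRNAs over gene reads without rRNAs took 9.67%, 6.38% and 6.96% in knockout, wild type and G3BP1 rescue of the first set. In the second set they took 8.26% in knockout, 6.64% in the wild-type rescue and 6.16% in the NTF2-deletion rescue, and with arsenite 9.94%, 7.32% and 6.86%. Without G3BP1 reads in the total, the members took 8.42% and 7.93% in the rescues and 9.04% and 8.79% with arsenite.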
